A study of Mus musculus with 30 samples.

Results

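The genes described here are the odorant receptor (*Olfr*) and vomeronasal receptor (*Vmn1r* and *Vmn2r*) genes with reads in single mouse embryos. They were selected on their measured counts, as every gene whose GENCODE vM21 symbol starts with one of these 3 names followed by a digit and whose raw counts added up to at least 20 over 23 embryos. This left 142 of 1740 receptor genes in the count files, which list 55487 genes in all. Of the remaining receptor genes, 443 had 1 to 19 counts and 1155 had none. The sum that chose the members also fixes which of them have the most counts, so the ranks and shares given here describe the libraries and are not tested. Since the sum includes the *Dis3* null embryos, a gene read in those embryos alone could enter through them.

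The embryos came from matings of mice heterozygous for a CRISPR/Cas9 null allele of *Dis3*, which encodes a ribonuclease of the RNA exosome, and were taken one by one on embryonic days 2.5 (E2.5) and 2.75 (E2.75), around the morula stage. Wild-type (WT) embryos numbered 6 at E2.5 and 3 at E2.75, heterozygous (Het) embryos 2 and 5, and homozygous null (Null) embryos 4 and 3. Every embryo thus had heterozygous parents, was cultured in KSOM medium and is 1 library of amplified polyadenylated RNA with added ERCC spike-ins. The same series holds lists of POU6F1 binding sites, from chromatin precipitation in mouse embryonic stem cells that were transfected with *Pou6f1-mCherry*, in 2 replicates. The stem cells are a different cell type from the embryos, and the tagged protein was supplied by transfection.

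Odorant receptors and vomeronasal receptors are membrane proteins with which sensory neurons of the nose detect odours and pheromones. Each mature olfactory neuron uses 1 allele of 1 receptor gene, while the other receptor genes of that cell are kept in silent chromatin, and the receptor protein itself helps to hold this choice through a feedback signal. *Olfr* genes encode the receptors of the main olfactory epithelium, *Vmn1r* genes those of the apical and *Vmn2r* genes those of the basal neurons of the vomeronasal organ. The genes lie in large clusters of similar copies, many of which are pseudogenes, and their coding sequence is often held by a single exon behind one or more noncoding exons.

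Gene counts ranged from 1690192 to 14015980 per library (median 8030848), and Null libraries were among the shallower ones, with a median of 4808323 against 8895879 in Het and 8644043 in WT libraries. *Dis3*, measured as a check of the genotypes, lay between 0 and 21.5 CPM (counts scaled to a common library total, here with TMM factors) in Null embryos and between 30.4 and 59.2 CPM in Het embryos. The library labelled E2.5 WT replicate 6 held 18.0 CPM of *Dis3*, within the range of the Null embryos. Without this library the numbers of members called in the comparisons of genotypes were the same as with it. All 15 morula markers examined had at least 20 counts. The share of reads that did not lie wholly within annotated exons was 32.3% to 43.9% in Null libraries, 21.2% to 27.9% in Het and 20.99% to 33.4% in WT libraries. This share moved with the genotype, and its part in the differences between genotypes was not tested.

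The receptor genes held 27843 counts over the 23 embryos, or 0.0157% of all gene counts, and the 142 members held 91.3% of them. *Olfr373* alone carried 6092 counts (21.9% of receptor counts) and *Olfr1459* carried 5050, so that these 2 genes made up 40.0%. The 10 members with the most counts held 56.8%. Embryos were also weighted equally by summing counts scaled to total gene counts, without TMM factors. The 10 members then highest, among them *Olfr881* and *Olfr376* in place of *Vmn1r210* and *Vmn1r32*, held 56.2%. By counts the first 10 were *Olfr373*, *Olfr1459*, the pseudogene *Olfr1372-ps1* (992 counts), *Olfr836* (948), *Vmn2r63* (710), *Olfr143* (521), *Vmn1r15* (502), *Vmn2r24* (362), *Vmn1r210* (340) and *Vmn1r32* (290). Below them the counts fell off slowly, with a median of 48 counts among the other members.

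**Figure D1:**
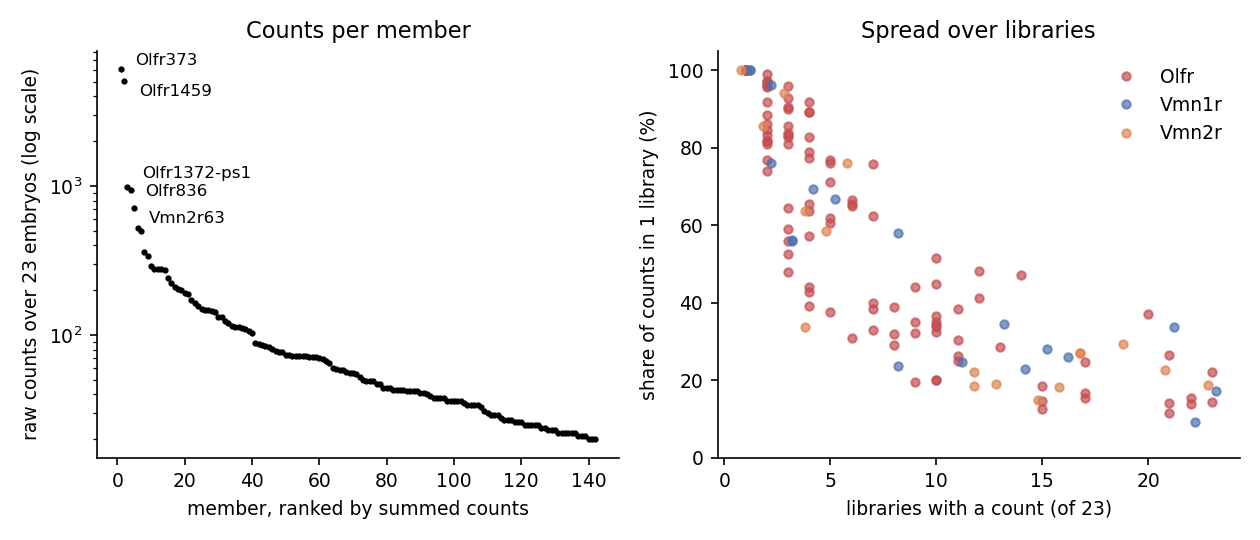
Left, raw counts summed over 23 embryos (log scale) for each member against its rank. Right, for each member, the share of its counts that came from 1 library (%) against the number of libraries with a count, with points coloured by family. *Olfr373* and *Olfr1459* stand above all other members, and most members with few libraries drew over 50% of their counts from 1 of them.

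Most members were read in few embryos. Counts were found in all 23 libraries for 4 members, *Olfr373*, *Olfr1459*, *Vmn2r63* and *Vmn1r15*, and the median member had counts in 5 libraries. In 66 members the counts came from at most 4 libraries and in 15 from a single library. For 76 members at least 50% of the counts, and for 28 members over 90%, came from 1 library. None of these 28 was among the 20 members with the most counts. The reads carry no molecular identifiers, so repeated counts in 1 library can be copies of few molecules.

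Members made up 107 of 1407 *Olfr* genes (7.60%), 18 of 211 *Vmn1r* genes (8.53%) and 17 of 122 *Vmn2r* genes (13.9%), while *Olfr* genes held 81.4% of the receptor counts. By annotation, 135 of the members were protein coding. The annotated exons of a member added up to a median of 4202.5 bases, against 2659 bases for receptor genes under 20 counts. Per kb of exon, the mean level over the embryos was highest for *Olfr373* with 12.02 CPM per kb, followed by *Olfr1459* with 2.96 and *Vmn1r15* with 1.94 CPM per kb. *Olfr373* thus lay above 71.9% of the expressed genes (those kept by the low-count filter of edgeR) and *Olfr1459* above 42.6%, while the third, *Vmn1r15*, lay above 33.0%. For *Olfr373* the mean over all embryos, 50.6 CPM, was raised by the Null embryos, with a mean of 137.4 CPM against 6.36 in Het embryos. Its place among expressed genes was not computed for each genotype.

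At the threshold, *Olfr482*, *Olfr370* and *Olfr847* were just inside with 20 counts each, in 10, 10 and 11 libraries. Just outside were 11 receptor genes with 19 counts, among them *Olfr102* in 2 libraries, *Olfr1505* in 4 and *Olfr214* in 3.

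Receptor genes resemble each other, and reads that map to several places were left out of the deposited counts. Of the 50-base stretches in the transcripts of a member, a median of 3.96% also occurred in a transcript of another gene. The share was 25.3% for *Olfr373*, most often with its neighbour *Olfr372*, 19.9% for *Olfr1459*, 13.3% for *Vmn2r63*, 0.913% for *Vmn1r15*, 5.08% for *Olfr374* and 0% for *Olfr70*. It was over 10% for 39 members, whose counts are the more uncertain. The counting also ignored the strand. Reads that fit the exons of more than 1 gene were set aside as ambiguous and are in neither gene's count. For the other reads in an overlap, the strand of origin is not known. Another annotated gene overlapped 23 of the members. Among them, *Vmn2r24* shares 2061 exonic bases with overlapping genes, *Vmn2r25* and *Gm23079*, both on the opposite strand, and *Olfr374* shares 87 with *Gm24747*.

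The 200 bases before the annotated start are shown for *Vmn2r63* and *Vmn1r15*, which were called between Null and Het embryos, and for *Olfr374*, which was called at E2.75. They were read from the reference GRCm38.p6 at chr8:72106840-72107039 for *Olfr374* (plus strand), chr7:42933823-42934022 for *Vmn2r63* (minus strand) and chr6:57257752-57257951 for *Vmn1r15* (plus strand). Capitals mark a match, on either strand, to one of 4 motifs. The TATA box was searched as TATAAA. The core of homeodomain sites was searched as TAATTA. The core of the olfactory EBF site was searched as CCCNNGGG, and the octamer of POU factors as ATGCAAAT. Overlaps between motifs were allowed.
*Olfr374*: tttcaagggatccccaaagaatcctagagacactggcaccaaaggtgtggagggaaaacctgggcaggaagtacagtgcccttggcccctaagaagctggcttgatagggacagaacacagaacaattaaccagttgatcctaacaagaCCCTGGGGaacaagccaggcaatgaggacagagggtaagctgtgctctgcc
*Vmn2r63*: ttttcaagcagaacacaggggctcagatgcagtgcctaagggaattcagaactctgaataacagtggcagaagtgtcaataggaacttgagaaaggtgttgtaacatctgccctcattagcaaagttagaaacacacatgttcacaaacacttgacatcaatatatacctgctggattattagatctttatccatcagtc
*Vmn1r15*: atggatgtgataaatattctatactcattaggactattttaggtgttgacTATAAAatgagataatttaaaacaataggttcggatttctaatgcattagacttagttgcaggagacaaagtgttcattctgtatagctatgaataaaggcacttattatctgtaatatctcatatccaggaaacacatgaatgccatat

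In these windows *Vmn2r63* held none of the 4 motifs, *Olfr374* held CCCNNGGG and *Vmn1r15* held TATAAA. Over all 142 members, TATAAA was found in 23.2% of the windows, TAATTA in 19.7%, CCCNNGGG in 14.1% and ATGCAAAT in 3.52%. In the 1596 windows read for receptor genes under 20 counts the shares were 23.9%, 18.4%, 10.5% and 1.19%, and over the 55104 windows of all genes of the files they were 12.7%, 5.72%, 7.46% and 1.60%. The members' windows were as rich in A and T as those of the other receptor genes, with a median of 39% G and C against 37%, where other expressed genes had 58%. The data do not show at which base transcription began in these embryos.

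*Olfr373* (ENSMUSG00000061561) lies on the plus strand of chromosome 8 from 72083177 to 72103084 in GRCm38, with 3 annotated transcripts that begin at 72083177, 72085710 and 72099762. It was higher in every Null embryo than in any other embryo. Among Null embryos the values were 139.7, 134.2, 91.6 and 217.7 CPM for E2.5, with 165.6, 108.2 and 104.5 CPM for E2.75. Among Het embryos they were 10.7 and 6.77 CPM for E2.5, with 3.63, 8.14, 5.81, 5.68 and 3.80 CPM for E2.75. In WT embryos it ranged from 2.52 to 40.1 CPM at E2.5 (median 15.4, n = 6) and was 31.4, 4.23 and 1.42 CPM at E2.75. The groups of Null and Het embryos did not overlap at either stage, and the WT embryos spread over a wide range below the Null embryos.

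With the stages merged by genotype, the mean of *Olfr373* was 137.4 ± 43.4 CPM in Null (SD, n = 7), 6.36 ± 2.48 in Het (n = 7) and 17.5 ± 15.96 in WT embryos (n = 9). Null exceeded Het by 4.44 on the log2 scale (SE 0.60, adjusted p = 0.000199 in the quasi-likelihood test of edgeR, adjusted by Benjamini-Hochberg over the genes tested). Null exceeded WT by 2.98 (SE 0.51, edgeR adjusted p = 0.000692). Het embryos were lower than WT by a log2 difference of -1.46 (SE 0.52), which did not pass the adjustment (edgeR adjusted p = 0.603). At E2.75 alone the rise over Het was 4.54 (SE 0.70, edgeR adjusted p = 0.00488). At E2.5, with 2 Het embryos, the log2 difference was 3.98 (SE 0.99) and edgeR's adjusted p was 0.323, while DESeq2 (log2 4.09, adjusted p = 0.000445) and edgeR with low counts kept (log2 3.93, adjusted p = 0.0389) called it there. In the fits with the stages merged and at E2.75, the gene was called under each of the alternative settings and with any 1 embryo left out. Its size depended on the scale. With spike-ins as the scale, the log2 difference was 3.29 from Het, 2.69 from WT and 3.81 from Het at E2.75. Since whole embryos were measured, more cells with this RNA and more RNA per cell cannot be told apart.

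The nearest expressed gene that is not a receptor is *Tpm4*, a tropomyosin of the actin cytoskeleton, 31891 bp away on the same strand. It had 120.6 ± 59.6 CPM in Null (SD, n = 7), 124.6 ± 30.1 in Het (n = 7) and 101.9 ± 46.1 in WT embryos (n = 9), and its log2 difference between Null and Het was -0.04 (edgeR adjusted p = 0.966). On the 5′ side the nearest expressed gene on the same strand is *Zfp961*, which encodes a zinc finger protein, 89385 bp away, with a log2 difference of 0.10 (edgeR adjusted p = 0.918). Neither neighbour was called. *Olfr373* also spans the annotated gene *Gm45543* on the same strand, with which it shares no exonic base.

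Both receptor genes next to it on that strand were members. *Olfr374* (ENSMUSG00000046881, chromosome 8, 72107040 to 72118200) begins 3956 bp after the end of *Olfr373* and had 189 counts in 9 libraries. *Olfr372* ends 22547 bp before *Olfr373* and had 56 counts, 52 of them in E2.5 Null replicate 1, 3 in E2.75 Null replicate 2 and 1 in E2.5 Null replicate 4. *Olfr374* was at 1.97, 2.05 and 2.35 CPM in the E2.75 Null embryos and at 0 in the 5 E2.75 Het and the 3 E2.75 WT embryos. At E2.5 it was at 1.56, 0, 0.916 and 15.3 CPM in Null embryos and at 1.72 and 0 CPM in Het embryos, and among WT embryos 1 stood at 6.79 CPM, with the next at 0.0817. The E2.75 Null embryos held 25 counts, 17 of them in replicate 3, against 0 in the Het embryos. With 3 counts over the Het group as the limit of a count of 0, the ratio after scaling to total gene counts was 32.6. This ratio takes the 25 counts as exact and covers neither copies of 1 molecule nor the spread between embryos. *Olfr374* was called at E2.75 (edgeR adjusted p = 0.0772), while with the stages merged its log2 difference of 3.72 was not (SE 1.72, edgeR adjusted p = 0.261). Of 11 fits that left out 1 embryo, 8 lost the call at E2.75, namely without WT replicate 2 or 3, Het replicate 1, 3, 4 or 5, or Null replicate 1 or 2 (edgeR adjusted p from 0.101 to 0.176). Without Null replicate 3 the gene did not pass the filter on low counts and was not tested. The call was also lost with a replicate block (edgeR adjusted p = 0.431), while between Null and WT the block gave a call (log2 6.39, edgeR adjusted p = 0.0599). Reads that run on from *Olfr373* and transcripts begun at *Olfr374* cannot be told apart in these counts.

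**Figure D2:**
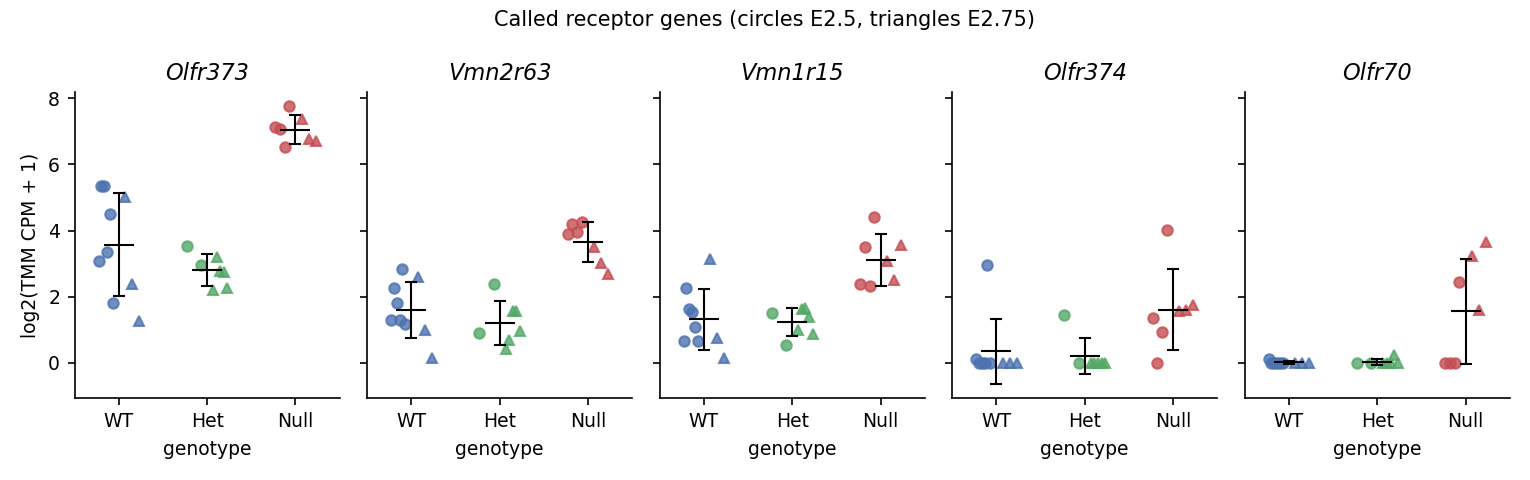
Level of the 5 called members as log2(TMM CPM + 1) in WT, Het and Null embryos, with circles for E2.5 and triangles for E2.75. The black bar marks the mean and its whiskers the SD of these values over the embryos of a genotype. *Olfr373* is above all other embryos in each Null embryo, and *Olfr70* is at or near 0 outside the Null embryos.

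Of the 142 members, 19 passed edgeR's filter on low counts in the fit with merged stages. A member could pass through 1 genotype in which it was high, so the count of calls is set beside that over all genes and nothing is read from it. Between Null and Het, 3 of the 19 were called higher (*Olfr373*, *Vmn2r63* and *Vmn1r15*) and 0 lower. Over all 13415 genes tested, 3.67% were called higher and 2.06% lower. Genes count as called where the adjusted p is below 0.1 and the log2 difference exceeds 1 in size. Without adjustment, 5 of the 19 had p under 0.05, against 17.3% of all genes. The same 3 members were higher in every Null embryo than in every Het embryo, which held for 2.2% of all genes, and 0 were lower in every Null embryo, beside 0.686%. The members' log2 differences ranged from -2.25 to 4.44 with a median of 0.80, where the median over all genes was 0.02.

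*Vmn2r63* (ENSMUSG00000090751, minus strand of chromosome 7, 42896711 to 42933822) encodes a receptor of the *Vmn2r* family, whose large outer domain binds peptides and proteins. Null embryos held 13.9, 17.3, 14.7 and 18.3 CPM when collected as E2.5, with 10.4, 7.18 and 5.40 CPM as E2.75. Het embryos held 0.860 and 4.18 CPM when collected as E2.5, with 0.324, 0.603, 1.99, 1.95 and 0.9497 CPM as E2.75. WT embryos ranged from 0.101 to 6.17 CPM (median 1.47, n = 9), so that the highest WT embryo was above the lowest Null embryo. Null exceeded Het by 2.99 on the log2 scale (SE 0.76, edgeR adjusted p = 0.0226) and WT by 2.30 (SE 0.68, edgeR adjusted p = 0.0532). With spike-ins as the scale these log2 differences were 1.97 and 1.95 (edgeR adjusted p = 0.0377 and 0.0879). Without E2.5 Null replicate 4, the difference from WT was no longer called (log2 2.18, edgeR adjusted p = 0.104), nor with a replicate block (log2 2.38, edgeR adjusted p = 0.142). Its nearest expressed gene, *Gm2381*, 29477 bp away on the same strand, had a log2 difference of -0.74 between Null and Het (edgeR adjusted p = 0.600).

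*Vmn1r15* (ENSMUSG00000115199, plus strand of chromosome 6, 57257952 to 57259972) encodes a receptor of the *Vmn1r* family, which detects small molecules. It had 4.26, 10.4, 3.97 and 20.2 CPM in the E2.5 Null and 7.39, 4.62 and 10.9 CPM in the E2.75 Null embryos. Het embryos ranged from 0.464 to 2.16 CPM (median 1.60, n = 7) and WT embryos from 0.101 to 7.72 CPM (median 1.13, n = 9). All Null embryos lay above all Het embryos, while E2.75 WT replicate 1 lay within the range of the Null embryos. The log2 difference of Null from Het was 2.63 (SE 0.81, edgeR adjusted p = 0.0673), and that from WT was 2.12 (SE 0.73), which was not called (edgeR adjusted p = 0.112). With stage as a term in edgeR (log2 2.14, adjusted p = 0.0916) and with DESeq2 (log2 2.18, adjusted p = 0.0067) the difference from WT was called. The call against Het was lost when any 1 of 6 embryos was left out, E2.5 Het replicate 2, E2.5 Null replicate 2 or 4, or E2.75 Het replicate 1, 4 or 5 (edgeR adjusted p from 0.102 to 0.163). With spike-ins as the scale the log2 difference was 1.36 (edgeR adjusted p = 0.196), without a call, and with low counts kept in the table edgeR's adjusted p was 0.108. With a replicate block it was 0.149. The nearest expressed gene is *Ppm1k*, which encodes a mitochondrial protein phosphatase, 246530 bp away. It was lower in Null than in WT embryos by a log2 difference of -1.20 (edgeR adjusted p = 0.0431).

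Between Null and WT embryos, 2 of the 19 members were called higher, *Olfr373* and *Vmn2r63*, and 0 lower, beside 3.66% and 1.59% of all genes. *Olfr373* was the 1 member whose Null embryos all lay above all WT embryos, and 0 members lay below, beside 1.55% and 0.149% of all genes. An unadjusted p under 0.05 was found for 4 of the 19 and for 15.1% of all genes. Between Het and WT embryos edgeR called 0 members and 0 of the 13415 genes in either direction. In that comparison 1 of the 19 members, *Olfr373*, and 6.96% of all genes had an unadjusted p under 0.05, while DESeq2 called 0 members and, over all genes, 37 higher and 29 lower.

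Within the stages, 23 members passed the filter at E2.75 and 46 at E2.5. At E2.75 edgeR called 3 members higher in Null than in Het (*Olfr373*, *Olfr374* and *Olfr70*) and 0 lower, beside 2.51% and 2.31% of the 14442 genes tested. There 7 members lay above and 1 below in every Null embryo, beside 7.7% and 6.11% of all genes, and 5 had an unadjusted p under 0.05, beside 17% of all genes. The 4 Null and 2 Het embryos of E2.5 gave 0 members called by edgeR and 2 of 15904 genes, both lower (0.0126%). DESeq2 called 3 of 101 members higher and 1 lower there, beside 458 and 153 of 28283 genes. Of the 46 members in edgeR's fit at E2.5, 3 had an unadjusted p under 0.05, beside 9.26% of all genes. In every Null embryo 5 lay above and 3 below, beside 8.89% and 9.59%.

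*Olfr70* (ENSMUSG00000050215, minus strand of chromosome 4, 43694784 to 43700807) had 125 counts in 6 libraries. The E2.75 Null embryos held 17, 4 and 83 of them, E2.5 Null replicate 4 held 19, and 1 count each was found in E2.5 WT replicate 1 and E2.75 Het replicate 4. In CPM these were 8.38, 2.05 and 11.5 at E2.75 and 4.47 in the E2.5 Null embryo, with the other 3 E2.5 Null embryos at 0. At E2.75, 104 counts in Null, 83 of them in replicate 3, stood against 1 in Het embryos. The ratio was 407 after scaling to total gene counts, with a 95% exact interval from 71.4 to 16212. This interval takes each count as a separate molecule and covers no spread between embryos. *Olfr70* was called at E2.75 (edgeR adjusted p = 0.0312) but no longer without E2.75 Null replicate 3 (edgeR adjusted p = 0.144) or with a replicate block (edgeR adjusted p = 0.276). With the stages merged it did not pass the filter on low counts.

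*Olfr1459* (ENSMUSG00000057503, minus strand of chromosome 19, 13138021 to 13149549) was read in every embryo of each genotype. It ranged from 9.18 to 32.3 CPM in Null (median 17.4, n = 7), from 6.12 to 60.7 CPM in Het (median 17.7, n = 7) and from 11.9 to 65.9 CPM in WT embryos (median 25.0, n = 9). The ranges overlapped, and the log2 difference of Null from Het was -0.56 (SE 0.49, edgeR adjusted p = 0.616). At E2.5 the 4 Null embryos had 17.4, 9.18, 10.99 and 10.3 CPM and both Het embryos had more, with 40.3 and 43.2 CPM, a log2 difference of -1.86 (SE 0.62, edgeR adjusted p = 0.514) that was not called. There DESeq2 (log2 -1.78, adjusted p = 0.0952) and edgeR on the scale of the spike-ins (log2 -3.05, adjusted p = 0.0583) called *Olfr1459* lower. On the spike-in scale 1916 of 15904 genes were called lower at E2.5. At E2.75 the log2 difference of *Olfr1459* was 0.32 (SE 0.63, edgeR adjusted p = 0.862). Whether the stages differ was not tested. When the spike-ins set the scale, the median log2 difference of all genes moved to -1.08. *Olfr1459* was then called lower in Null than in Het embryos (log2 -1.34, edgeR adjusted p = 0.0654), as were 4487 of 13415 genes. Its nearest expressed gene, *Zfp91*, lies 341895 bp away.

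**Figure D3:**
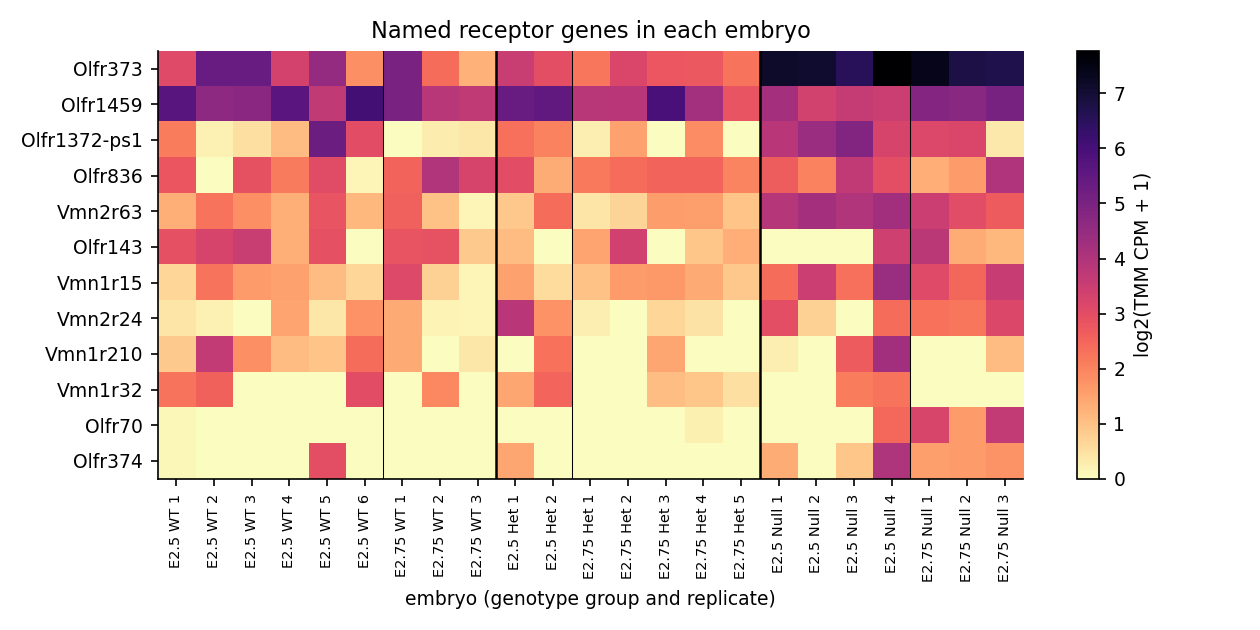
Levels of the 10 leading members and of *Olfr70* and *Olfr374* as log2(TMM CPM + 1), shown by colour, in each of the 23 embryos. Thick lines separate the genotypes and thin lines the stages. *Olfr373* is dark in the 7 Null embryos, *Olfr1459* is present in every embryo, and the members further down are patchy.

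*Olfr1372-ps1*, a transcribed pseudogene, ranged from 0.277 to 27.8 CPM in Null embryos (median 8.70, n = 7), from 0 to 4.05 in Het (median 1.81, n = 7) and from 0 to 37.7 in WT embryos (median 0.413, n = 9). The highest value of all was in E2.5 WT replicate 5, and the log2 difference of Null from Het, 2.87 (SE 1.28), was not called (edgeR adjusted p = 0.238). *Olfr836* overlapped between the genotypes, with 1.48 to 15.0 CPM in Null (median 5.30), 1.58 to 6.88 in Het (median 4.22) and 0 to 14.7 in WT embryos (median 6.04). *Olfr143* was at 0 in 3 of 4 Null embryos at E2.5 and reached 12.8 CPM in 1 Null embryo at E2.75, with medians of 1.25 CPM in Null, 1.11 in Het and 6.24 in WT embryos.

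Among vomeronasal receptors, *Vmn2r24* had a median of 3.94 CPM in Null (0 to 8.03), 0.355 in Het (0 to 13.02) and 0.308 in WT embryos (0 to 2.43), and its difference between Null and Het was not called (log2 0.72, SE 1.19, edgeR adjusted p = 0.815). At E2.75 all Null embryos lay above all Het embryos, without a call (log2 4.33, SE 1.44, edgeR adjusted p = 0.132). *Vmn1r210* was at 0 in 5 Het embryos and reached 18.3 CPM in 1 Null and 11.3 CPM in 1 WT embryo. *Vmn1r32* was found in 11 libraries and at most at 6.99 CPM, in the library labelled E2.5 WT replicate 6.

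Between the stages in WT embryos (6 at E2.5, 3 at E2.75), edgeR called 0 of 21 members tested in either direction, where 3.03% of 13272 genes were called higher and 3.73% lower at E2.75. An unadjusted p under 0.05 was found for 3 members, *Vmn1r53*, *Olfr1419* and *Olfr1372-ps1*, and for 18.7% of all genes. DESeq2 called 3 of 99 members lower at E2.75, beside 987 of 27067 genes. *Olfr1419* was higher in every E2.5 WT embryo than in every E2.75 WT embryo, as were 8.54% of all genes.

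Receptor genes together held a larger part of the counts in most Null embryos. Scaled to total gene counts without TMM factors (raw CPM), all receptor genes held 253 to 431 raw CPM in Null (median 292, n = 7), 70.4 to 310.0 in Het (median 106, n = 7) and 66.1 to 235.1 in WT embryos (median 124, n = 9). E2.75 Het replicate 2, at 310.0, lay within the range of the Null embryos, and the next Het embryo was at 145.0. In that library *Olfr881* held 18.5% and *Olfr376* 12.3% of the receptor counts. Without *Olfr373* and *Olfr1459* the values were 116 to 249.7 in Null (median 160.0), 49.0 to 287 in Het (median 68.1) and 44.9 to 164 in WT embryos (median 86.0), and the genotypes overlapped.

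In each family the median was highest in Null embryos. *Olfr* genes other than *Olfr373* had medians of 121 raw CPM in Null, 71.3 in Het and 83.6 in WT embryos. The medians of *Vmn1r* genes were 25.3, 14.7 and 11.3, and those of *Vmn2r* genes 28.2, 8.08 and 7.46 raw CPM. These sums include the called members *Vmn1r15* and *Vmn2r63*, and medians without them were not computed. With TMM factors *Vmn2r63* alone had 5.40 to 18.3 CPM in Null and 0.324 to 4.18 in Het embryos. *Vmn1r15* had 3.97 to 20.2 CPM in Null and 0.464 to 2.16 in Het embryos. After thinning every library to 1690192 counts, the number of receptor genes with a count was 48.3 to 106 in Null (median 62.0), 35.3 to 70.1 in Het (median 41.1) and 31.8 to 66.3 in WT embryos (median 42.2). These are sums over genes of which some were chosen for their counts, and they were given no test. They were not computed on the scale of the spike-ins. The share of reads not wholly within exons was higher in these Null libraries, as given above.

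**Figure D4:**
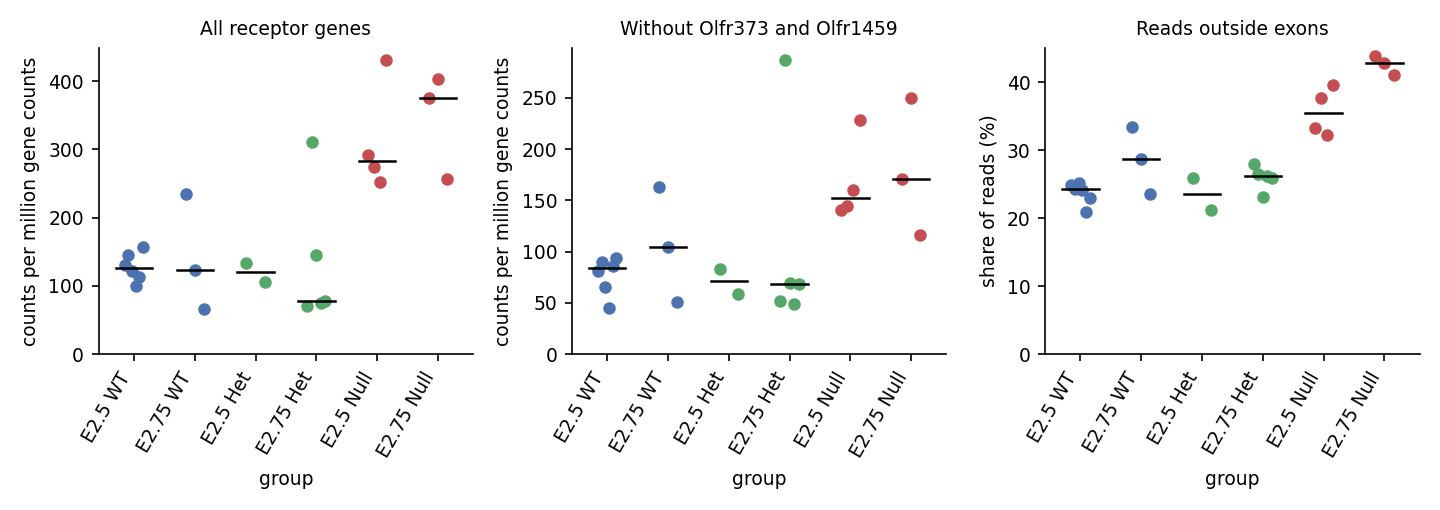
Summed raw CPM of all receptor genes (left), the same without *Olfr373* and *Olfr1459* (middle), and the share of reads not wholly within annotated exons (%, right), with 1 point for each embryo and a bar at the median of each group of genotype and stage. Null embryos are high in the left and right panels, and 1 Het embryo at E2.75 is as high as the Null embryos in the left panel.

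The genotypes in which members had counts are given as a description. Of the 142 members, 86 had counts in all 3 genotypes, 7 in Null libraries alone, 6 in Het and 9 in WT libraries alone. The library with most of a member's counts was a Null embryo for 50 members, a Het embryo for 38 and a WT embryo for 54. There were 7 Null, 7 Het and 9 WT libraries. The same numbers were not computed over all genes, and the sum over all embryos chose the members, so nothing is read from them.

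In olfactory neurons the receptors act through the G protein subunit Gαolf (*Gnal*), adenylyl cyclase 3 (*Adcy3*) and the cyclic nucleotide-gated channel (*Cnga2*, *Cnga4* and *Cngb1*), and vomeronasal neurons use the channel TRPC2. Of 18 genes of this signalling, 7 passed the filter with merged stages and 0 were called between Null and Het or Null and WT embryos by edgeR, with a median log2 difference from Het of -0.45 where that of all genes was 0.02. *Cnga2*, *Cnga4*, *Slc24a4* and *Trpc2* had 0 counts in all embryos, *Gnal* had 507 counts and *Adcy3* 1204. The median difference of the 7 genes is a description and was given no test.

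Of the genes for proteins that carry odorant receptors to the cell surface (*Rtp1*, *Rtp2*, *Rtp3*, *Rtp4* and *Reep1*), only *Reep1*, which also shapes the endoplasmic reticulum in other cells, passed the filter. It was lower in Null embryos, with 84.6 ± 58.1 CPM (SD, n = 7) against 291 ± 127 in Het (n = 7) and 199.98 ± 59.1 in WT embryos (n = 9), a log2 difference of -1.78 from Het (edgeR adjusted p = 0.00913) and -1.24 from WT (edgeR adjusted p = 0.0614). Of 20 identifiers listed for receptor choice and its feedback (*Ddit3* matched 2), 13 passed the filter and 0 were called. They include *Ldb1*, *Kdm1a*, which encodes the histone demethylase LSD1, and the genes of the heterochromatin proteins *Cbx1*, *Cbx3* and *Cbx5*. *Lhx2*, a homeodomain factor of olfactory neurons, had 139 counts and did not pass. Of 45 genes of other chemoreceptors (trace amine, formyl peptide, taste, *Ms4a* and *Gucy2d*), 28 had 0 counts, 40 were under 20 counts and 0 passed the filter.

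Of 10 markers of olfactory and vomeronasal sensory neurons, *Stmn2*, *Cnga2* and *Trpc2* had 0 counts, *Omp* had 8, *Gap43* 3 and *Gng8* 3 counts over all embryos, while *Tubb3* and *Ano2* passed the filter and were not called. Their summed level was 0 to 9.74 CPM in Null, 0 to 19.6 in Het and 0.334 to 20.4 in WT embryos. Sperm cells also use some odorant receptors. The summed level of 10 spermatid and sperm markers was 0.4929 to 23.8 CPM in Null, 0.249 to 1.48 in Het and 0 to 11.4 in WT embryos, with *Tnp1* and *Akap4* at 0 counts and *Prm1* at 9. That of 10 cumulus and granulosa markers was 21.9 to 69.3 CPM in Null, 8.44 to 39.7 in Het and 13.2 to 37.9 in WT embryos, with 3 markers at 0 counts. The summed levels of the last 2 lists reached higher in Null embryos than in the others, but each sum rested largely on 1 gene. *Amhr2* held 3503 counts, with means of 34.7 CPM in Null, 18.4 in Het and 14.3 in WT embryos. *Star* (1056 counts) went the other way, with 2.80, 4.55 and 7.28 CPM, and edgeR called neither. Of the sperm markers *Ldhc* had the most counts (253), with 3.30 ± 7.86 CPM in Null (SD, n = 7), 0 in Het and 2.01 in WT embryos. The part of these lists in the receptor counts was not tested. Of the 15 morula markers, *Gata3* and *Krt18*, a transcription factor and a keratin of the trophectoderm, were called lower in Null than in Het embryos (log2 -2.12 and -2.95, edgeR adjusted p = 0.00942 and 0.0352). Neither was called between Null and WT embryos (log2 0.11 and -1.65, edgeR adjusted p = 0.959 and 0.278). For *Gata3* the Het embryos stood apart, with means of 39.0 CPM in Null, 169 in Het and 36.0 in WT embryos.

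Receptor genes lie far from other expressed genes, and the members lay less far than the rest. The median distance from a member to the nearest expressed gene that is not a receptor was 169186 bp, against 294575 bp for the 1598 receptor genes under 20 counts and 2227 bp between other expressed genes. An expressed neighbour lay within 10 kb of 11 of 142 members (7.75%) and of 23 of the 1598 others (1.44%), and within 100 kb of 56 (39.4%) and 320 (20.0%). When a gene had to reach a mean of 5 CPM to count as expressed, 6 members had one within 10 kb. The members also overlapped another annotated gene more often, 23 of 142 (16.2%) against 149 of the others (9.32%). Members cluster along the genome and are no independent sample of it, and 62 of them had another member within 50 kb.

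**Figure D5:**
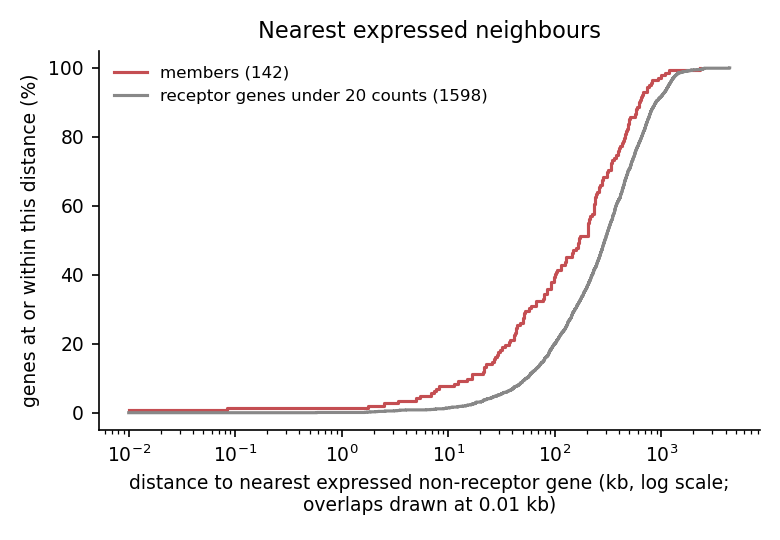
Share of genes (%) whose nearest expressed gene other than a receptor lies at or within a given distance (kb, log scale, with overlaps drawn at the left end), for the 142 members and for the receptor genes under 20 counts. The curve of the members lies to the left over most distances, with 39.4% against 20.0% at 100 kb.

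The 10 leading members lay at a similar distance, with a median of 156523.5 bp and 1 of them within 10 kb. This was *Vmn1r32*, 4960 bp from *Mad2l1*, a gene of the spindle checkpoint on the opposite strand, which had a mean of 226 CPM and a log2 difference between Null and Het of 0.30 (edgeR adjusted p = 0.714). *Olfr1372-ps1* lies 26944 bp from *Ppp2ca*, a phosphatase subunit on the opposite strand. *Olfr836* lies 496164 bp from *Zfp317*, *Olfr143* lies 595462 bp from *Tbrg1*, *Vmn2r24* lies 571904 bp from *Pex5* and *Vmn1r210* lies 66517 bp from *Gm11313*. On the 5′ side, the nearest expressed gene on the same strand was further away than 50 kb for all of the first 10 members and within 50 kb for 9 of 142 (6.34%). For these 10 it was *Zfp961*, *Tle4* (1298601 bp), *Tcf7*, *Mbd3l2*, *Zfp715*, *Siae*, *Fkbp9*, *Clec4a1*, *Zfp322a* and *Gm9794*, in the order of the members' counts.

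Other close pairs were *Olfr1419* and *Gm6365* (2509 bp, same strand), *Vmn1r90*, which overlaps the pseudogene *Nlrp5-ps*, and *Olfr543*, which lies 6808 bp from *Rrm1*, a subunit of ribonucleotide reductase. *Olfr70* lies 25639 bp from *Fam221b*. The 142 members have 80 distinct nearest neighbours. Between Null and Het, edgeR called 2 of these higher (*Mzf1* and *Zfp202*) and 1 lower (*Zfp560*), beside the shares of all genes given above, with a median log2 difference of 0.06. None of these 3 is next to a called member. Between Null and WT, edgeR called 1 neighbour higher (*Zfp202*) and 2 lower (*Ppm1k* and *Zfp560*), beside 3.66% and 1.59% of all genes. *Ppm1k* is the nearest expressed gene of *Vmn1r15*, which was called against Het but not against WT.

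Sites of POU6F1 at receptor genes were rare. For each replicate, 1 peak list was made against IgG from the same transfected cells (the first control) and 1 against the mCherry precipitate of cells transfected with *mCherry* alone (the second control). The lists carry only the numbers 1 and 2, which were matched to these controls by the legend of the study. Of the 15998 peaks present in both replicates against the first control, 1 lay within 1 kb of an annotated start of a member (0.704% of 142), and likewise 1 for the 1598 other receptor genes (0.0626%), against 8802 of 13388 other expressed genes (65.7%). With the second control it was 0 members. No read depth comes with the lists, and replicate 1 alone had peaks at 6 members.

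The 1 member was *Vmn1r4* (ENSMUSG00000071893, plus strand of chromosome 6, 56924015 to 56958100), with 87 counts in 13 libraries. The peak covers its annotated start at a fold enrichment of 20.6 over the control. That start lies 83 bp from the start of *Nt5c3*, which encodes a nucleotidase and runs the other way, with a mean of 37.3 CPM and a log2 difference of 0.34 between Null and Het (edgeR adjusted p = 0.721). Its other transcripts begin at 56924022, 56949332 and 56956466. The 82 bases between both genes, at chr6:56923933-56924014 in GRCm38.p6 (plus strand), are shown because the peak covers the start of *Vmn1r4* beside them, with the CG dinucleotides in capitals.
*Vmn1r4* to *Nt5c3*: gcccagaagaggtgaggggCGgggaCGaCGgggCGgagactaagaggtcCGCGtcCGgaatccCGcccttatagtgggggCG

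As printed, this stretch runs from *Nt5c3* on the left to *Vmn1r4* on the right. It holds 9 CG dinucleotides and 69.5% G and C, and the 200 bases before *Vmn1r4* hold 76% G and C, the most of all members. *Vmn1r4* ranged from 0 to 4.93 CPM in Null (median 0.416, n = 7), 0 to 3.69 in Het (median 0.528, n = 7) and 0 to 1.03 in WT embryos (median 0, n = 9), and the groups overlapped. The nearest peak to an annotated start of *Olfr373* was 35182 bp away, and for *Olfr1459* it was 350332 bp. For *Vmn2r63* and *Vmn1r15* it was 378818 bp and 277542 bp.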

How the data were processed

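The authors trimmed reads with cutadapt 3.4, aligned to the genome by STAR 2.7.8a and obtained gene counts by HTSeq 0.11.4 (per the labels and the submitters' processing notes), and deposited raw counts for each of the 23 embryos. Counting used unique alignments that lie wholly within exons, without strand. For the peaks the authors used Bowtie2 2.4.4, MACS2 2.2.7.1 and bedtools 2.30.0, and the deposited lists give each peak's score, fold enrichment (a ratio to the control), −log10 p and −log10 q. Of these, position, fold enrichment and −log10 q were used.

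Gene symbols, positions and exons were taken from GENCODE vM21, in which 55227 of 55487 identifiers were found. Spike-ins were left out of the library sizes. Genotypes were compared with edgeR 4.0.16 (R 4.3.3): TMM normalization, filterByExpr, quasi-likelihood test and Benjamini-Hochberg adjustment over all genes tested. The stages were merged by genotype in 1 fit of all embryos, and Null was compared with Het also within each stage. Calls needed an adjusted p below 0.1 and a log2 difference of more than 1 in size. The script was tested on simulated data. Embryos of a group are separate embryos, and all 38 pairs of libraries compared differed beyond sampling noise. Distances run between gene bodies. A peak counted for a gene within 1 kb of an annotated start when peaks of both replicates overlapped by at least 1 bp.

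The members and gene lists were chosen with earlier results of these data known. Named were the 10 members with the most counts, every member called in a comparison, their expressed neighbours and members with a peak. Single genes of the lists were named as examples after their values were seen, as were *Olfr372* and the members at the threshold. Alternatives were DESeq2 1.42.0, spike-in normalization, no filter, other minimum counts, stage as a term, a fit of the 2 genotypes alone, a replicate block, and leaving out each embryo. Intervals and limits cover counting error only, with each count taken as a separate molecule. The sequence before 1 member's start is not reported here.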

Additional observations from a re-analysis of the deposited data

Results flagged for a closer look

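In 14 of 39 groups of embryos searched, the highest embryo stood apart from the others of its genotype by Dixon's criterion, where chance gives about 1 in 20. Groups with many embryos at 0 meet it readily, and no explanation was tested.

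*Vmn1r15* reached 20.2 CPM in E2.5 Null replicate 4, with the next Null embryo at 10.9, and 7.72 CPM in E2.75 WT replicate 1, with the next WT embryo at 3.78. E2.5 Null replicate 4 was also the highest Null embryo for *Olfr374* (15.3 CPM, next 2.35) and *Vmn1r210* (18.3 CPM, next 5.50). *Olfr374* stood at 6.79 CPM in E2.5 WT replicate 5, with the next WT embryo at 0.0817, and at 1.72 CPM in E2.5 Het replicate 1, with all other Het embryos at 0.

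Among WT embryos, *Olfr1372-ps1* reached 37.7 CPM in E2.5 WT replicate 5 (next 6.89) and *Vmn1r210* 11.3 CPM in E2.5 WT replicate 2 (next 4.17). Among Het embryos, *Vmn2r24* reached 13.02 CPM in E2.5 Het replicate 1 (next 2.41), *Vmn1r32* 4.64 CPM in E2.5 Het replicate 2 (next 1.72) and *Olfr143* 9.34 CPM in E2.75 Het replicate 2 (next 1.75). The last library also had the most receptor counts of the Het embryos, 310.0 CPM without TMM factors (next 145.0). *Olfr70* had 1 count in E2.75 Het replicate 4 (0.177 CPM) and 1 in E2.5 WT replicate 1 (0.0817 CPM), with the other embryos of both genotypes at 0.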

How the results depend on the processing

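*Olfr373* kept its calls under all alternatives run, with any 1 embryo left out giving log2 differences of 4.28 to 4.61 from Het, 2.82 to 3.24 from WT and 4.25 to 4.72 from Het at E2.75. On the spike-in scale its log2 difference from Het was smaller, at 3.29. The numbers of members called depended on the tool and the filter. DESeq2 tested more members, 142 with merged stages. It called 8 higher between Null and Het, beside 1248 of 33616 genes, and 7 higher between Null and WT, beside 1187. At E2.5 it called 3 of 101 members higher and 1 lower, beside 458 and 153 of 28283 genes. At E2.75 it called 5 of 113 higher and 1 lower, beside 956 and 721 of 28912 genes. Between the stages in WT embryos it called 3 of 99 lower, beside 987 of 27067 genes. With low counts kept, edgeR tested 142 members with merged stages. Between Null and Het it called 19 higher and 1 lower, beside 1266 and 542 of 33616 genes. Between Null and WT it called 25 higher and 4 lower, beside 2672 and 737 genes. At E2.5 it called 1 of 126 members higher, beside 14 of 29669 genes, and at E2.75 8 of 130, beside 667 of 29549. The sum that chose the members includes the Null embryos, so nothing is read from these numbers. With spike-ins as the scale, 2 of 19 members were called lower between Null and Het (*Olfr1459* and *Vmn1r207-ps*), beside 4487 of 13415 genes. At E2.5 it was 1 of 46 (*Olfr1459*), beside 1916 of 15904 genes. Leaving out 1 embryo gave 2 to 4 members higher between Null and Het, 1 to 3 between Null and WT (1 without E2.5 Null replicate 4), 1 to 3 at E2.75 (1 without E2.75 Null replicate 3) and 0 in the other counts of calls.

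Same-numbered embryos did not deviate together (17 correlations from -0.115 to 0.0826), so the numbers do not pair them. With the replicate block, 2 members were called higher between Null and Het, beside 371 of 13415 genes, and 2 between Null and WT, beside 382. At E2.75 it was 1 member, *Olfr373* (edgeR adjusted p = 0.0760), beside 41 of 14442 genes. The block lost *Vmn1r15* against Het, *Vmn2r63* against WT and *Olfr70* and *Olfr374* at E2.75, and added *Olfr374* against WT. With stage as a term 3 members were called higher between Null and Het, beside 486 of 13415 genes. Between Null and WT 3 members were called higher, beside 563 genes, and *Vmn1r15* was added there. With the 2 genotypes alone in the fit the numbers were 3 of 7 and 2 of 11 members, beside 503 of 11483 and 389 of 11857 genes. The number of detected receptor genes was 245 with a minimum of 10 counts, 73 with 50, and 134 to 141 with 1 embryo left out. The share of the 10 members leading in each such set was 55.7% to 58.3%. An expressed gene within 10 kb was found for 6 members at a mean of at least 5 CPM. A POU6F1 peak at a start was found for 0 members with the second control, an alternative chosen after seeing the data, and 0 at a −log10 q of at least 10. Members with few counts in a shallow library can be missed, and a count of 0 allows up to 3 counts.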
